A study of Equus caballus with 19 samples.

Results

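Acute-phase and alarmin genes were followed in equine tenocytes, the fibroblast-like cells of tendon, exposed to interleukin 1 beta (IL-1β). The genes were chosen by name: SAA1, S100A8, S100A9, S100A12, LCN2, HP, LBP and PTX3. Of these 8 genes, 7 had a row among the 29196 gene names of both tables, and HP, which encodes haptoglobin, was not analysed here. The cells were primary, wild-type tenocytes of the superficial digital flexor tendon of adult Thoroughbred horses, with 1 line per horse, and every group was grown in 3D gels of bovine type I collagen for 14 days. In the first batch lines 1 to 5 were cultured in plain medium (control) or with 1 nM IL-1β, which gave 10 libraries. In the second batch lines 6 to 8 were cultured as control, with 1 nM IL-1β or with the same IL-1β dose and 100 ng/ml of the IL-1 receptor antagonist (IL1Ra), which gave 9 libraries. IL1Ra alone was not among the groups, so its own effect on these genes cannot be told apart from its effect on the response to IL-1β.

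Acute-phase proteins are secreted when IL-1β and IL6 reach a responding cell, classically the hepatocyte, through NF-κB, C/EBP and STAT3 transcription factors, and several are also made outside the liver. SAA1 encodes serum amyloid A, the major acute-phase protein of the horse and a marker of inflammation in equine medicine. S100A8, S100A9 and S100A12 encode small calcium-binding proteins that are abundant in neutrophils and monocytes and act on TLR4 and RAGE once released. LCN2 binds bacterial siderophores, LBP hands lipopolysaccharide to CD14 and TLR4, and PTX3 is a long pentraxin that binds microbes and complement.

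The values are normalised counts, scaled within each batch, so levels were compared between libraries of 1 batch and not between genes, whose lengths differ. Libraries summed to 43.4 to 49.2 M normalised counts in the first batch, and those of the second batch to 25 to 34.6 M. Of 8 tenocyte and fibroblast markers tested in the first batch, 6 were DE downwards with IL-1β (COL1A1, COL1A2, SCX, MKX, THBS4 and COMP) and 0 upwards. The other 2, DCN and LUM, had higher means with IL-1β and were not DE. DCN ranged over 44080–93120 normalised counts in controls and 67410–132500 with IL-1β, and LUM over 44100–72940 and 82340–149000. COL1A1, the main collagen of tendon, ranged over 453600–875700 normalised counts in controls and 89920–297600 with IL-1β. SCX, the tendon transcription factor, ranged over 821.7–2110 and 9.69–204.8. In the second batch COL1A1 ranged from 40710 to 332600 over all libraries. The part of these changes in the members' results was not tested. TNMD, a marker of mature tenocytes, had no counts in the 10 first-batch libraries and at most 1.00 in any second-batch library. In both batches the cultures were bulk samples, in which fewer cells of a type and less RNA per cell cannot be told apart.

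IL-1β raised SAA1 and S100A12, and PTX3 from low counts, and lowered LCN2 in the first batch, while S100A8 and S100A9 appeared at low counts and LBP stayed at or near 0. A gene was called differentially expressed (DE) where limma gave an adjusted p below 0.05 with a log2-fold change of 1 or more in size. Of the 14719 genes tested, 12.8% were DE, 4.91% upwards and 7.9% downwards. Of the 7 members, 4 passed the filter on low counts. PTX3 did so through its IL-1β libraries, since 2 of its 5 controls reached 10 normalised counts, so it is described apart from any count. SAA1 and S100A12 were DE upwards and LCN2 downwards. For SAA1 and S100A12 every IL-1β library lay above every control library, against 9.34% of the genes tested.

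**Figure D1:**
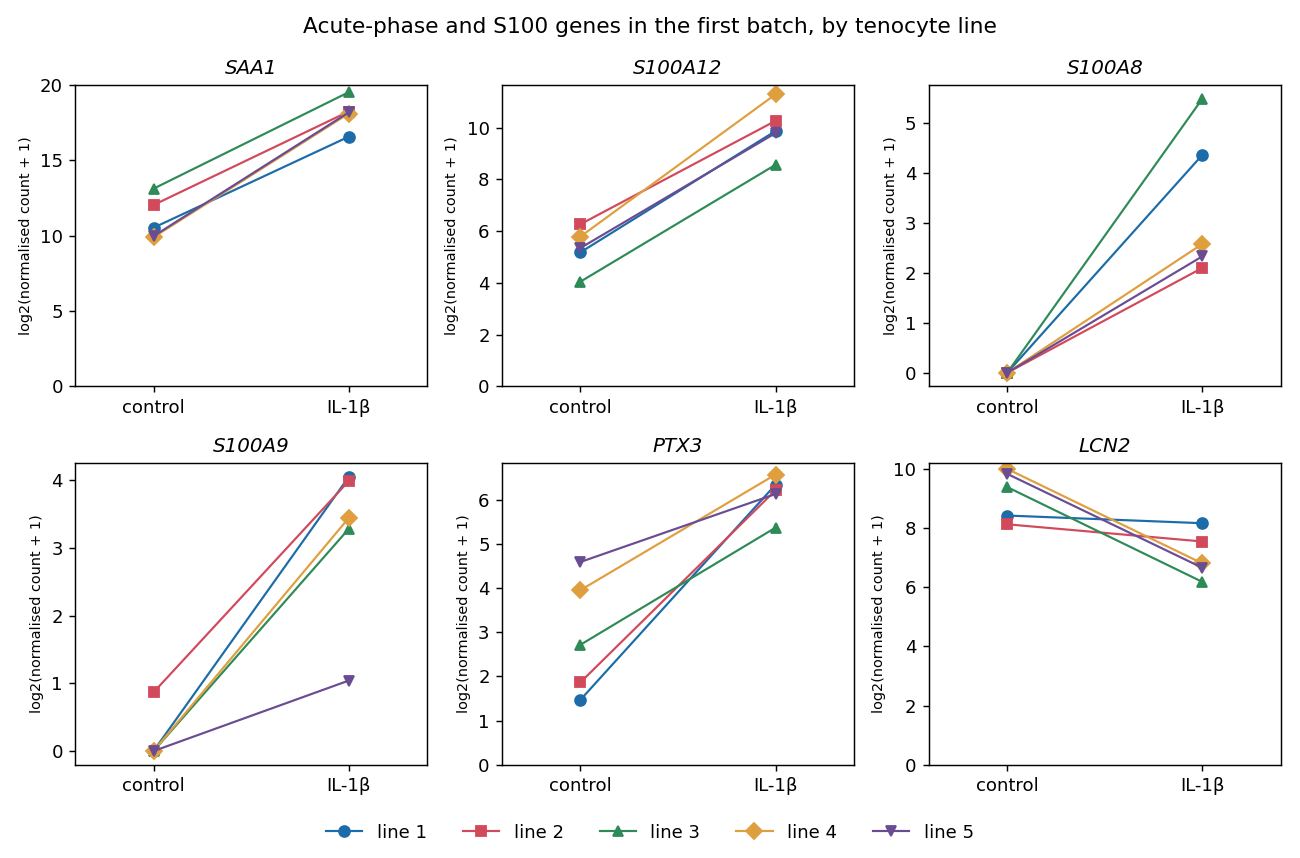
Normalised counts of 6 members in the first batch, on a log2(normalised count + 1) axis, with the control and IL-1β library of each tenocyte line joined by a line. SAA1, S100A12, S100A8, S100A9 and PTX3 rose in 5 of 5 lines, and LCN2 fell steeply in lines 3, 4 and 5 and little in lines 1 and 2. The vertical scale differs between panels.

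SAA1 had 1477, 4206, 8909, 955.7 and 1004 normalised counts in the control libraries of lines 1 to 5. With IL-1β the same lines had 97260, 309600, 753000, 282100 and 297300. The lowest IL-1β library was thus about an order of magnitude above the highest control, and line 3 was the highest in both conditions. The mean went from 3311 ± 3405 to 347900 ± 242500 normalised counts (SD, n = 5), a log2-fold change of 7.01 (SE 0.69, limma adjusted p = 1.138e-04). In fold terms SAA1 rose 65.8, 73.6, 84.5, 294.8 and 295.7 times in lines 1, 2, 3, 4 and 5. Lines 4 and 5, which had the lowest control values, had the largest ratios, and each ratio contains that control value. SAA1 made up 0.00220% to 0.0200% of all normalised counts in the control libraries and 0.198% to 1.67% in the IL-1β libraries. SAA1 had the 23rd highest log2-fold change of the genes tested.

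SAAL1, the gene beside SAA1 in the horse gene order, had 639 to 819 normalised counts in the controls and 699 to 885 with IL-1β. A separate gene name, SAA, was at 0 in 9 of 10 libraries of the first batch and had at most 4.90 in the second. Serum amyloid A genes are near-identical copies, so how reads were split between SAA1 and unlisted copies is uncertain.

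S100A12, an alarmin of neutrophils and monocytes, had 35.3, 76.1, 15.5, 54.4 and 39.8 normalised counts in the controls of lines 1 to 5. With IL-1β these lines had 936.5, 1229, 378.3, 2502 and 884.8. Line 3 was the lowest in both conditions, the reverse of its place for SAA1. The log2-fold change was 4.63 (SE 0.51, limma adjusted p = 2.153e-04). The ratios of the 5 lines were closer to each other than those of SAA1, at 25.8, 16, 22.9, 45.2 and 21.7 times.

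S100A8 and S100A9, which together form calprotectin, did not pass the filter. S100A8 was at 0 in all 5 controls and had 19.5, 3.28, 43.6, 4.96 and 4.02 normalised counts with IL-1β in lines 1 to 5. Its IL-1β mean was at least 5.02-fold higher than a floor of 3 normalised counts per control library. Lines 1 and 3 carried most of that mean, and without line 3 the bound was 2.65-fold. Against the measured controls, not the floor, an exact permutation test on log2(normalised count + 1) gave a two-sided p = 0.00794 (n = 5 per group). S100A9 was at 0 in 4 controls and 0.823 in the control of line 2, and had 15.5, 14.8, 8.70, 9.84 and 1.06 with IL-1β. Its IL-1β mean was at least 3.33-fold higher than the same floor. The same test against its measured controls gave a two-sided p = 0.00794 (exact permutation test, n = 5 per group). For both genes this p is the smallest that the 252 arrangements of the libraries allow, and the arrangements did not keep the pairing by line. Every IL-1β library was above every control for both genes. With controls at or under 0.823, about 1 read per IL-1β library could be enough for that, and the S100A9 value of line 5 was that of about 1 read. The share of genes below the filter with no overlap was not computed.

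PTX3 had 1.77, 2.64, 5.57, 14.5 and 23.1 normalised counts in the controls of lines 1 to 5, and 80.0, 73.2, 40.3, 94.0 and 68.9 with IL-1β. The IL-1β libraries lay within a narrow range, whereas the controls spread more than 10-fold. The log2-fold change was 3.21 (SE 0.59, limma adjusted p = 0.00310). Because the filter admitted PTX3 through the libraries where it was high, the fit without any filter was also read, and there the limma adjusted p was 0.00438. The ratio per line, on counts with 1 added, ran from 2.91 times in line 5, the highest control, to 29.3 times in line 1, the lowest control.

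LCN2 was the member that fell. Its controls had 343.4, 279.5, 670.3, 1027 and 914.2 normalised counts in lines 1 to 5, and with IL-1β 286.7, 186.4, 71.6, 111.1 and 100.2. All 5 lines were lower with IL-1β, but the groups overlapped, since the IL-1β library of line 1 was above the control of line 2. The log2-fold change was −2.09 (SE 0.46, limma adjusted p = 0.00776), which is 4.24-fold lower. Control was 9.24, 9.17 and 9.05 times the IL-1β value in lines 3, 4 and 5, and 1.2 and 1.5 times in lines 1 and 2. Without line 5 the log2-fold change was −1.81 and the limma adjusted p 0.0519, so the gene was no longer DE.

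LBP was at 0 in 9 of 10 libraries of the first batch, with 0.877 normalised counts in the control of line 1, and at 0 in all 9 libraries of the second. At this depth LBP RNA thus gave no more than about 1 read in any library of any condition.

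The S100A genes lie together on horse chromosome 5, and S100A12 stands between S100A8 and S100A9 in the RefSeq order of 15 of them. In the first batch 10 of 16 other S100 genes were tested, with 0 DE upwards and 2 downwards, and their median log2-fold change was −0.34 against −0.00341 over all genes tested. S100A2, a p53-responsive family member of epithelia, had a log2-fold change of −2.02 (SE 0.56, limma adjusted p = 0.0217). S100A10, the annexin A2 partner, had one of −1.59 (SE 0.45, limma adjusted p = 0.0243). S100A7 was at 0 in 9 of 10 libraries. S100 paralogs resemble each other in sequence, so assignment of reads among them is uncertain.

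**Figure D2:**
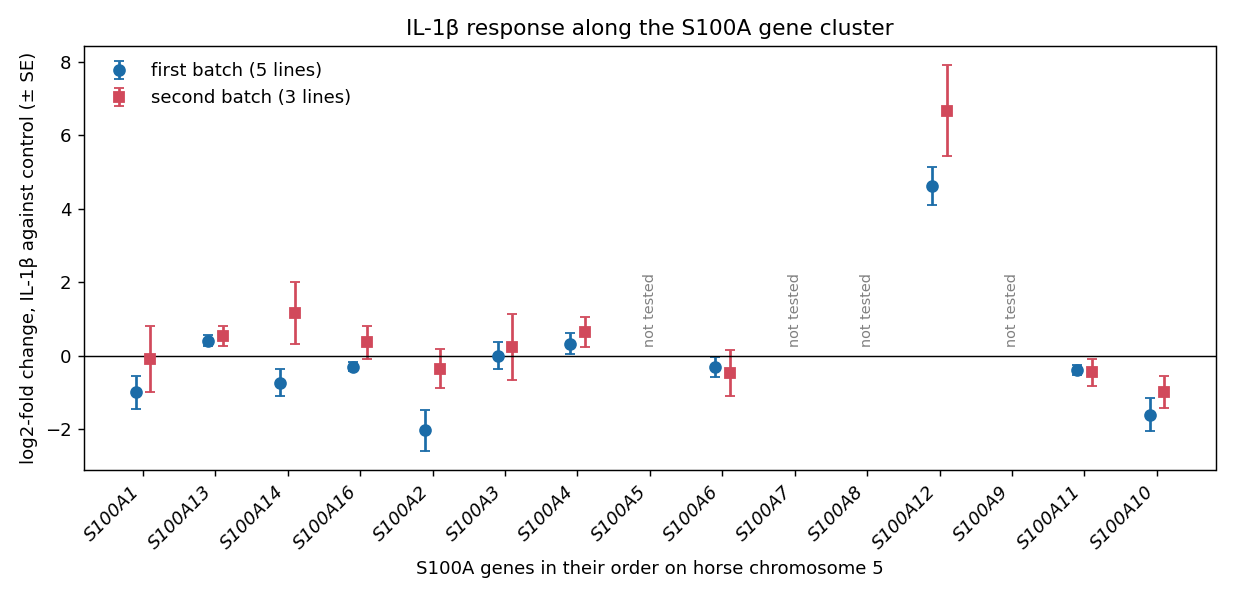
Log2-fold change with IL-1β relative to control, with its standard error, for the 15 S100A genes in their order along chromosome 5, for both batches. S100A12 stands at 4.63 (first batch) and 6.66 (second batch), while S100A5, S100A7, S100A8 and S100A9 had too few counts to be tested in the first batch.

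Genes upstream of the acute-phase response were measured as a list of 15, of which all 15 were tested in the first batch, with 5 DE upwards and 0 downwards. One of the 5, IL1B, passed the filter only through its IL-1β libraries. IL6, the main inducer of acute-phase genes in liver, had a log2-fold change of 8.72 (SE 0.55, limma adjusted p = 7.985e-06). NFKBIZ, the inducible NF-κB cofactor, had 3.40 (SE 0.14). CEBPB, which encodes C/EBPβ, had a log2-fold change of 1.54 (SE 0.18). IL1B itself was at or under 0.934 normalised counts in the 5 controls and had 53.2 to 463.2 with IL-1β, at least 79-fold higher than the floor. CEBPD had a log2-fold change of 0.49 (limma adjusted p = 0.25). Of the 15 genes, 11 had a higher mean log2 level with IL-1β and 4 a lower one. STAT3 was among the lower ones and was not DE, with 6322 to 8899 normalised counts in controls and 3952 to 7674 with IL-1β.

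Among 20 other acute-phase genes, 14 had a row and 5 were tested, with 2 DE upwards and 1 downwards. CP, the copper carrier ceruloplasmin, had a log2-fold change of 3.05 (SE 0.49, limma adjusted p = 0.00158), and FTL, the ferritin light chain, had 2.04 (SE 0.32, limma adjusted p = 0.00143). FN1, which encodes fibronectin, had −1.36. CRP had a log2-fold change of 0.10 (limma adjusted p = 0.862), and APCS, FGA, FGG and HAMP were at 0 in every library of the first batch. The hepatocyte marker ALB ranged from 86.7 to 298.5 normalised counts in controls and 33.9 to 122.4 with IL-1β, and TTR was at 0.

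Receptors and binding partners of these proteins formed a list of 14, of which 9 were tested, with 1 DE upwards and 0 downwards. LY96, the MD-2 partner of TLR4, had a log2-fold change of 1.25 (SE 0.22, limma adjusted p = 0.00229). TLR4 had 269.3, 27, 31.7, 18.4 and 288.1 normalised counts in the controls of lines 1 to 5 and 1207, 92.1, 89.8, 55.3 and 886.9 with IL-1β. It was higher in 5 of 5 lines (log2-fold change 1.71, limma adjusted p = 0.279) and was DE in the fit blocked on tenocyte line (limma adjusted p = 6.253e-04). AGER, which encodes RAGE, had a log2-fold change of 0.38 (limma adjusted p = 0.0853), and TLR2 one of 0.80 (limma adjusted p = 0.166). CD14, the co-receptor to which LBP delivers its cargo, was below the filter in the first batch. It had 17.4, 0, 0, 0 and 1947 normalised counts in the controls of lines 1 to 5. With IL-1β it had 0, 0, 0, 71.4 and 2811, so line 5 carried nearly all of it. Of 11 partners and antimicrobial genes, 4 were tested and 3 were DE upwards: the collagenase MMP8 (log2-fold change 7.53, with 2 of 5 controls at 10 or more), the elastase inhibitor PI3 (2.66) and the gelatinase MMP9 (1.54).

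Because S100A8, S100A9 and S100A12 mark myeloid cells, leukocyte markers were read beside them. Of 14 markers, 11 were at or under 10 normalised counts in every library of the first batch, and AIF1, TYROBP, CD3E and CD79A were at 0. The pan-leukocyte gene PTPRC was at 0 in all 5 controls and at most 3.64 with IL-1β, and CSF3R, MPO and ELANE summed to at most 1.93 in controls and 4.09 with IL-1β. The 14 markers summed to 61.1 to 181.6 in controls and 309.1 to 1401 with IL-1β. CD68, a lysosomal gene that fibroblasts also express, made up 63.0% to 96.0% of that sum in controls and 92.9% to 97.0% with IL-1β, and was DE upwards (log2-fold change 2.64, SE 0.47, limma adjusted p = 0.00265). The myeloid markers ITGAM and FCER1G were higher with IL-1β in 5 of 5 lines. ITGAM had 8.76, 2.62, 0, 2.91 and 42.7 normalised counts in the controls of lines 1 to 5, and 21.8, 9.65, 2.1, 3.02 and 55.3 with IL-1β. FCER1G had 0, 0.856, 0.915, 0.942 and 4.51 in controls, and 17.0, 14.2, 4.11, 4.00 and 7.03 with IL-1β. The 13 markers other than CD68 summed to 2.77 to 50.5 in controls and 13.1 to 64.3 with IL-1β. Their part in the S100 results was not tested. Of 6 epithelial markers only 1, CDH1, passed the filter. CDH1 was at 1413 to 3904 normalised counts in controls and 20.5 to 544.2 with IL-1β (log2-fold change −4.75, limma adjusted p = 0.00213). KRT14 reached 47.1 and KRT5 14.4 in controls, and both were at 0 with IL-1β. KRT8 had 1.74 to 7.44 in controls and 2.02 to 11.9 with IL-1β. EPCAM was at most 1.21 and KRT18 at most 3.70 in any library. CDH1 moved in the same direction as LCN2, and its part in the LCN2 result was not tested.

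In the second batch SAA1, S100A12 and PTX3 were higher with IL-1β in 3 of 3 lines. Only 0.341% of the 16705 genes tested were DE in IL-1β against control, and SAA1 was the member among them. When the line was fitted as a block, 5.18% of genes were DE, and so were 2 members, SAA1 and S100A12. For SAA1 and S100A12 every IL-1β library was above every control, against 8.82% of the genes tested. PTX3 also did not overlap, but none of its 3 controls reached 10 normalised counts, so it passed the filter only through libraries with IL-1β, and 1 control of S100A12 was also under 10. With 3 libraries against 3 an exact permutation test cannot go below p = 0.1.

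SAA1 had 4617, 769.4 and 579.3 normalised counts in the controls of lines 6 to 8, and 337700, 128600 and 277600 with IL-1β. With IL-1β and IL1Ra it had 125900, 54970 and 39750. In each line the library with IL1Ra lay between the other 2, nearer to IL-1β than to control on the log scale. IL-1β against control had a log2-fold change of 7.49 (SE 0.81, limma adjusted p = 0.0155, and 0.00173 with the block). Without line 7 the log2-fold change was 7.55 and without line 8 it was 6.79, and in neither was SAA1 DE. Without line 6 it was 8.14 and SAA1 was DE (limma adjusted p = 0.00211).

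S100A12 had 91.0, 26.3 and 0.855 normalised counts in the controls of lines 6 to 8, the last being about 1 read. With IL-1β it had 853.8, 2431 and 2328, and with IL1Ra added 276.0, 624.1 and 379.0. The 3 conditions did not overlap. Against control, IL-1β gave a log2-fold change of 6.66 (SE 1.2), with a limma adjusted p of 0.0757 and of 0.0232 with the block. The size depended on line 8, since it was 4.85 without that line and 8.39 without line 6 (limma adjusted p = 0.0271). S100A12 was not DE without line 7 (6.76, limma adjusted p = 0.513) or without line 8 (limma adjusted p = 0.638).

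PTX3 had 1.01, 1.89 and 3.45 normalised counts in the controls of lines 6 to 8, 63.7, 7.76 and 16.1 with IL-1β, and 26.4, 14.5 and 5.35 with IL1Ra added. Line 7 was higher with IL1Ra than without it. Against control, IL-1β gave a log2-fold change of 2.85 (SE 0.86, limma adjusted p = 0.249), and 1.77 without line 6.

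LCN2 did not move one way in the second batch. It had 898.8, 165.3 and 91.3 normalised counts in the controls of lines 6 to 8, 28.5, 275.3 and 68.7 with IL-1β, and 439.5, 189.0 and 158.4 with IL1Ra added. Only line 6 fell steeply with IL-1β, while line 7 rose. The log2-fold change was −1.53 (SE 1.01, limma adjusted p = 0.66), and 0.16 without line 6. As log2 ratios of IL-1β to control, LCN2 stood at −0.26, −0.58, −3.21, −3.20 and −3.18 in lines 1 to 5, and at −4.93, 0.73 and −0.40 in lines 6 to 8. Lines thus ranged from a steep fall to little change in both batches, with a rise in line 7. The steep falls were in lines 3, 4, 5 and 6, whose controls had 670.3, 1027, 914.2 and 898.8 normalised counts. The other controls had 343.4 or less, and each ratio contains its control value. CDH1 was at 10.3 to 107.5 normalised counts in the second-batch controls and 0 to 72.1 with IL-1β.

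S100A8 was at 0 in the 3 controls of the second batch. It had 26.6, 17.9 and 0 normalised counts with IL-1β in lines 6 to 8, and 1.95, 1.92 and 0 with IL1Ra added. S100A9 was at 0 in the 3 controls, with 1.07, 13 and 7.26 with IL-1β and 5.79, 2.01 and 2.10 with IL1Ra added. Both were below the filter, and S100A8 was not seen in any library of line 8.

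**Figure D3:**
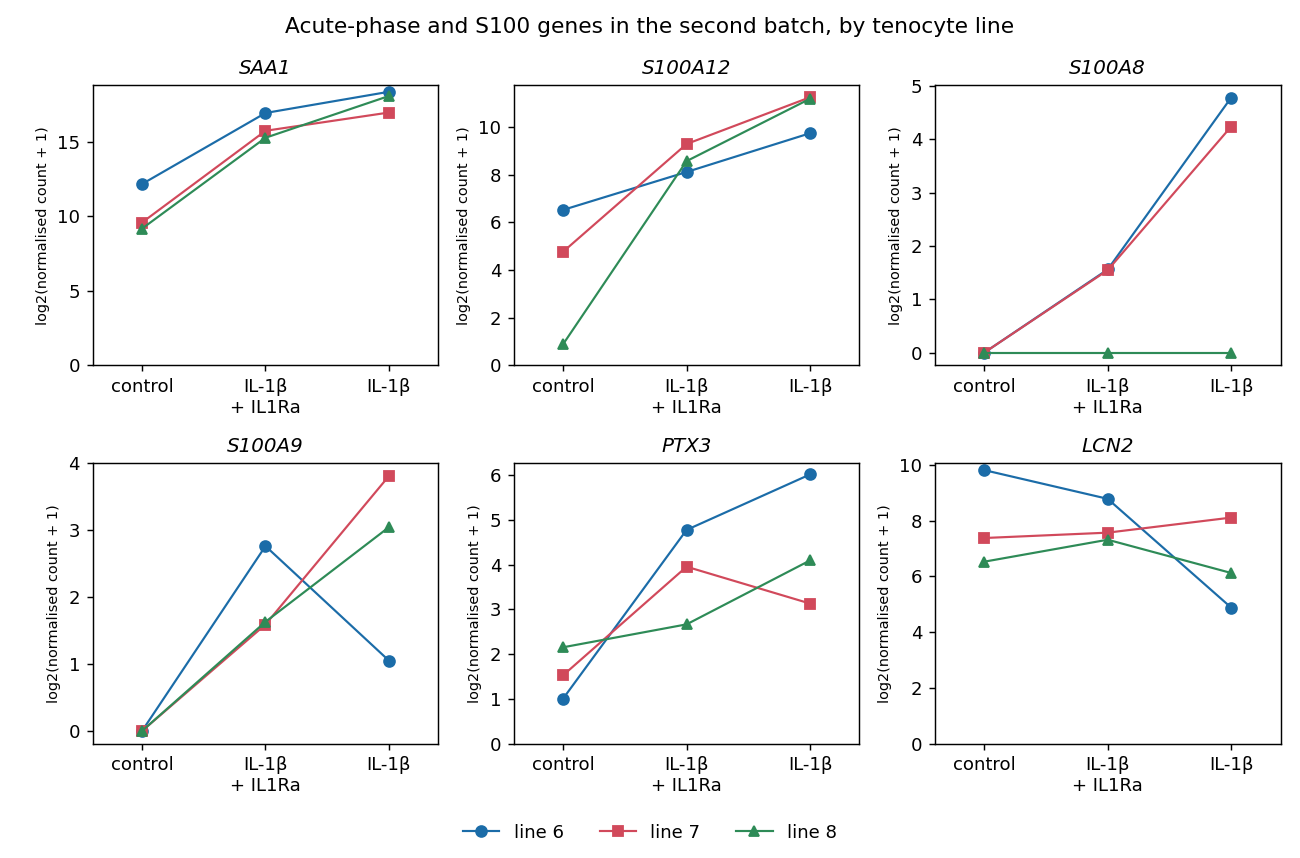
Normalised counts of 6 members in the second batch, on a log2(normalised count + 1) axis, for control, IL-1β + IL1Ra and IL-1β, with the 3 libraries of each tenocyte line joined. For SAA1 and S100A12 the libraries with IL1Ra lie between control and IL-1β in 3 of 3 lines, and for LCN2 and PTX3 the lines go different ways. The vertical scale differs between panels.

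With IL1Ra added, SAA1 and S100A12 were above control and below IL-1β in 3 of 3 lines. The comparisons of IL-1β + IL1Ra with control and with IL-1β share libraries with the comparison above. Against control, 0.012% of genes were DE and 0 of 4 tested members were, with SAA1 and S100A12 at an unadjusted limma p under 0.05, against 5.67% of genes. Both also lay above control in every library, against 5.79% of genes. The log2-fold change of SAA1 was 5.67 (SE 0.81), with a limma adjusted p of 0.12 and of 0.021 with the block, under which 0.251% of genes were DE. Without line 6 the log2-fold change was 6.13, and SAA1 was DE (limma adjusted p = 0.00983). Without line 7 it was 5.43 and without line 8 it was 5.46, and in neither was SAA1 DE. S100A12 had a log2-fold change of 4.6 (SE 1.2, limma adjusted p = 0.595), PTX3 2.24 (SE 0.86) and LCN2 −0.02 (SE 1.01). Single lines moved these values, since leaving out line 6 gave 6.10 for S100A12 and 1.47 for PTX3, and leaving out line 8 gave 3.05 and 3.10.

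Against IL-1β alone, 0% of genes were DE in limma, 464 of 16705 (2.78%) had an unadjusted p under 0.05, and the block gave 1 DE gene (0.00599%). None of the 4 tested members was DE in either fit, and without the block none had an unadjusted p under 0.05. SAA1 was 2.68, 2.34 and 6.98 times lower with IL1Ra in lines 6 to 8, with a log2-fold change of −1.82 (95% interval −3.68 to 0.05, limma adjusted p = 1). S100A12 was 3.09, 3.89 and 6.13 times lower, with a log2-fold change of −2.07 (95% interval −4.91 to 0.78). For both genes every library with IL1Ra lay below every IL-1β library, against 3.35% of the genes tested. LCN2 had a log2-fold change of 1.52 and was higher in 2 of 3 lines, with 0.33 without line 6 and 2.55 without line 7. PTX3 had one of −0.61, with −1.33 without line 7.

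In linear terms SAA1 with IL1Ra was at 37.3%, 42.7% and 14.3% of its IL-1β level in lines 6, 7 and 8, and S100A12 at 32.3%, 25.7% and 16.3%. As a share of the log2 response to IL-1β, 76.3% ± 7.48 of the SAA1 response and 64.6% ± 13.3 of the S100A12 response were left (SD, n = 3). The exact sign-flip permutation test of a fall in log2 level gave p = 0.25 for each, the smallest that 3 lines allow. The inducer IL6 had 168100, 136500 and 137100 normalised counts with IL-1β in these lines, and 13780, 201700 and 119200 with IL1Ra added.

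**Figure D4:**
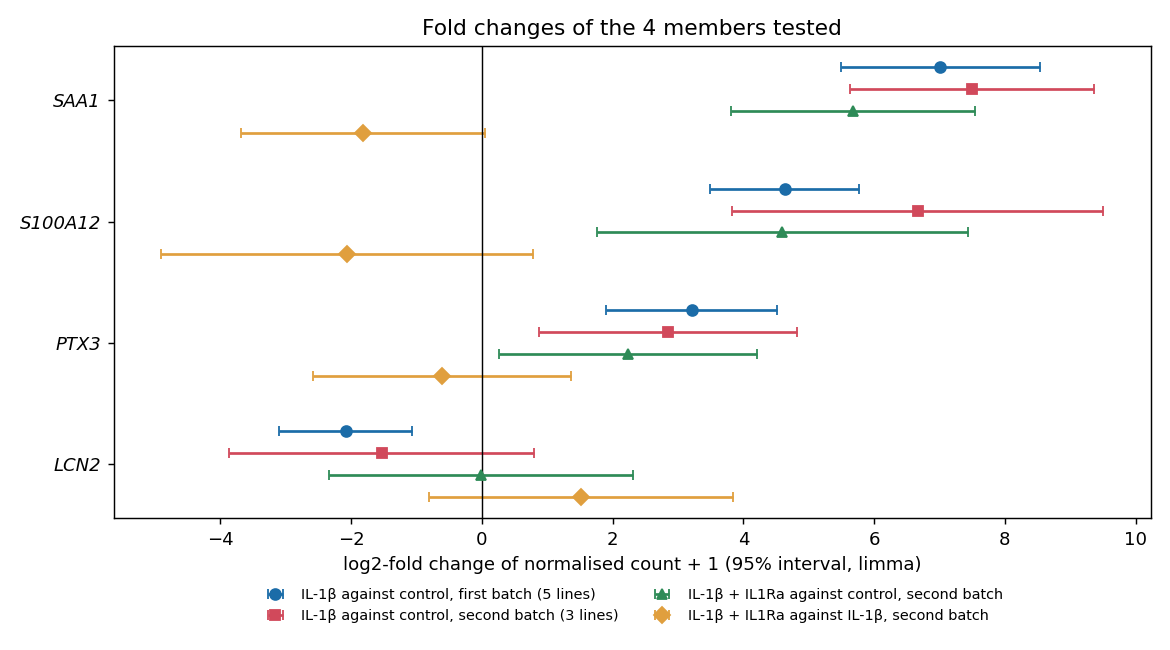
Log2-fold changes of the 4 members tested, with 95% intervals from limma without the block, in the 4 comparisons. SAA1 and S100A12 lie above 0 in the 3 comparisons with control, and their intervals include 0 in IL-1β + IL1Ra against IL-1β. The comparisons of the second batch share libraries.

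In the second batch 1 of the 15 inducers, IL6, was DE in IL-1β against control (log2-fold change 9.11, limma adjusted p = 0.0155), and 5 were with the block. None of the 5 tested acute-phase genes was DE there without the block, and 3 were with it, among them CP (log2-fold change 4.29, adjusted p = 0.0129) and FTL (1.96, adjusted p = 0.0137). None of the 11 other S100 genes tested was DE, with or without the block. In the second batch CD68 ranged from 66.6 to 287.1 normalised counts in controls, 181.3 to 1769 with IL-1β and 115.1 to 1378 with IL1Ra added. The 13 leukocyte markers other than CD68 summed to 12.1 to 25.8, 29.2 to 88.4 and 24.1 to 114.1 in these groups. CSF3R, MPO and ELANE together gave 1.00 to 8.58 in controls, 3.31 to 10.6 with IL-1β and 2.87 to 14.7 with IL1Ra added, and their part in the S100 values of this batch was not tested.

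The genes whose log2 levels ran most like each member over the 10 libraries of the first batch were named as a description, with r over the 9 libraries of the second batch beside it. For SAA1 they were VPS37C (r = 0.985, then 0.861), MEFV, which encodes pyrin (0.98, then 0.899), and PGM1 (0.976, then 0.608). For S100A12 they were HIF1A, the hypoxia-inducible factor (0.972, then 0.878), FAM219A (0.972, then 0.695) and G0S2 (0.97, then 0.624). For LCN2 they were RAI14 (0.979, then 0.624), SLC7A1 (0.977, then 0.59) and TARS (0.967, then 0.928). For PTX3 they were CLN8 (0.973, then 0.531), TFE3 (0.959, then 0.369) and TYSND1 (0.959, then 0.443). All of these points share the split into control and IL-1β libraries.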

How the data were processed

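The deposited signal values are normalised counts. The authors quantified paired-end reads against the EquCab3.0 transcriptome in Salmon, collapsed transcripts to genes in tximport and applied DESeq2 size factors to each batch on its own (DESeq2 1.36 and R 4.2.1 in the submitters' processing notes). Tests therefore stayed within a batch. Of the values under 12, 71.0% to 80.3% per library lay within 0.1 of a whole read, too few to rebuild reads for a count model.

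Genes reaching 10 normalised counts in 5 libraries (first batch) or 3 (second) entered limma 3.58.1 (R 4.3.3) on log2(normalised count + 1), a scale that understates changes of low genes, and p-values were adjusted by Benjamini-Hochberg over all of them. Members below the filter had an exact permutation test, and folds against groups at or under 3 normalised counts used 3 as the floor. Intervals are 95%. The fits were tested on simulated data. A line is 1 donor's cells, and its libraries deviated together (r 0.35 to 0.58 over 5 pairs, 0.54 to 0.79 over 9) more than those of unlike lines (−0.36 to 0.29 over 20, −0.62 to 0.25 over 18), so the line was also fitted as a block. The text names the members, at most 3 DE genes per list, IL6, CEBPB, CEBPD, NFKBIZ, TLR4, TLR2, AGER and CD14, marker genes, and the 3 genes most correlated with each tested member. CRP, SAA, SAAL1, S100A7, STAT3 and list genes at 0 were added after their values were seen. Members and lists were chosen with earlier results of these data known. A RefSeq table of a newer assembly held 7 members and gave gene order only.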

Additional observations from a re-analysis of the deposited data

Results flagged for a closer look

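Among 19 groups of 5 values, 3 held a sample far from the other 4, where chance flags about 1 in 20 groups of continuous values. In these 3 groups the other 4 values were all 0, so any other value was bound to be flagged and that rate does not apply. S100A9 had 0.823 normalised counts in the control of line 2 and 0 in the other 4 controls of the first batch. LBP had 0.877 in the control of line 1 and 0 in the other 4, which also gave that line a log2 ratio of IL-1β to control of −0.91 against 0 in the others. Each of these values is that of about 1 read.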

How the results depend on the processing

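Values were recomputed with another pseudocount, filter, scaling, variance model, threshold, replicate block, set of lines or set of conditions. Of 243 such values, 232 kept their direction and, where there was a threshold, their side of it. Shares of the response left with IL1Ra have no threshold and counted as kept within the SD over lines of the main mean. That rule was loose for PTX3, whose SD was 63.0 points and whose share ran from 50.8% to 113.3% when 1 line was left out. In the first batch SAA1, S100A12 and LCN2 were DE, against 12.8% of the genes tested. They were also DE with the replicate block, against 16.2%. With 1 line left out SAA1 and S100A12 stayed DE, and LCN2 did so except without line 5. PTX3 was also called, as were S100A8 and S100A9 without the filter on low counts. These genes are not counted, since they were low in controls. In IL-1β against control of the second batch 1 member was DE (0.341% of all genes tested) and 2 with the replicate block (5.18%). With a pseudocount of 5 there were 2, and 0 to 2 when 1 line was left out, settings for which no share over all genes is given. In IL-1β + IL1Ra against control 0 members were DE (0.012% of all genes tested), 1 with the replicate block (0.251%) and 0 to 1 when 1 line was left out. Against IL-1β 0 were DE under every alternative run. The direction of LCN2 reversed in IL-1β against control of the second batch without line 6 (−2.67 to 0.16 when 1 line was left out), and in IL-1β + IL1Ra against control under quantile normalisation (0.065) and without line 6 (−0.42 to 0.49 when 1 line was left out). The causes were not tested. The block changed no other call of a member. PTX3 gave no value under a filter of 50 normalised counts. It also gave none in the second batch where either treated group was fitted with the controls alone. Low counts limit S100A8, S100A9, LBP and PTX3 most.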
